A study of Mus musculus with 3 samples.

Results

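The genes that endothelial cells use to catch, slow and admit leukocytes were followed by single-cell RNA sequencing in mouse synovium and infrapatellar fat pad from the knee. They were the selectin genes Selp and Sele, the immunoglobulin-type adhesion genes Vcam1, Icam1 and Icam2, the chemokine-binding receptor gene Ackr1, the homing glycoprotein gene Glycam1 and the von Willebrand factor gene Vwf. These 8 of the 32285 genes in the files were chosen by symbol. Each of the 3 groups was 1 library of cells pooled from 5 to 10 mice labelled wild type (wt). The control mice were 2 months old. The other mice underwent DMM at 2 months of age, in which the medial meniscus is destabilised by surgery to model osteoarthritis after joint injury, and their tissue was taken 1 week or 2 months later. The 2-month group was therefore also older than the other groups. A first digestion used 0.25% trypsin (30 min) and the second used 300 U/mL collagenase I (30 min). Live-sorted cells from the second were loaded for 3' sequencing with molecular identifiers (UMIs), so that each UMI counts 1 captured transcript. The sources used here give neither the sex of the mice nor whether any had sham surgery.

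Leukocytes leave the blood mainly through small venules. P- and E-selectin let them roll along the vessel wall, chemokines held on the wall activate their integrins, and ICAM and VCAM proteins then hold them firmly before they cross. P-selectin is stored with von Willebrand factor in Weibel-Palade bodies, secretory granules that a stimulated endothelial cell empties within minutes, so part of the display of these proteins does not need new transcripts. In lymph nodes, tall-walled venules also make the secreted mucin GlyCAM-1.

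After barcodes with under 500 genes or over 10% mitochondrial UMIs were set aside, 8099 control, 12316 1-week and 9782 2-month cells remained, with medians of 10871, 12919.5 and 13543 UMIs and 1.79%, 3.51% and 3.41% mitochondrial UMIs. Endothelial cells were those with at least 1 Cdh5 UMI (VE-cadherin, the endothelial junction protein) and no Ptprc UMI (the pan-leukocyte gene). They numbered 1270, 1784 and 1157, with 13040520, 24955839 and 18061173 UMIs in all and medians of 8388, 11485 and 13266 per cell. Pecam1, which was not used in the choice, was detected in 82.8%, 85.8% and 90.1% of them. The gate was not pure. The fibroblast gene Pdgfra was detected in 20.6%, 20.4% and 21.3% of these cells and the mural gene Notch3 in 9.76%, 6.67% and 7.35%. Summed over each list, 10 fibroblast markers were at 20941, 19395.5 and 17163 CPM in these cells (CPM being the UMIs of a gene in 1000000 UMIs of the cell class), 10 mural markers at 1842, 719 and 1131, 12 leukocyte markers at 563, 381 and 409, and 5 erythroid genes at 2141, 381 and 385. All 4 lists were highest in the control, and the part of other cells' RNA in the results was not tested. Markers of vessel beds differed too. By the 2-fold rule given below, 7.7% of all endothelial genes were called higher and 8.38% lower than in the control at 1 week. At 2 months 3.72% were called higher and 2.82% lower. Of 10 capillary markers 0 were called higher than in the control at either time, 8 lower at 1 week and 5 lower at 2 months. Of 11 venular markers 4 were called higher and 0 lower at 1 week, and 3 higher and 0 lower at 2 months. Their median log2 ratios were 0.85 and 0.70, against 0.02 and 0.06 over all genes. They summed to 1991, 2674 and 2453.5 CPM across control, 1-week and 2-month libraries. Of 11 markers of angiogenic cells 5 were called higher and 0 lower at 1 week, and 1 higher and 2 lower at 2 months. Their part in the 8 genes' levels was not tested. Between 21 and 30 of the cell barcodes that passed were shared by any pair of libraries. Levels are given in CPM. Each group being 1 library, groups could not be tested against each other. All intervals are 95% intervals for counting error and do not cover the spread between mice. A gene was called higher or lower where its level differed at least 2-fold and the pair of sums held at least 50 UMIs.

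Against the control, 1 of the 8 genes was called higher in endothelium at 1 week, where 7.70% of all 12751 genes with enough UMIs were called higher and 8.38% lower. That gene was Glycam1. At 2 months 2 of the 8 were called higher, Glycam1 and Vwf, where 3.72% of 12467 genes were called higher and 2.82% lower. Between the operated libraries Vwf alone was called, higher at 2 months, where 6.93% of 12944 genes were called higher and 5.21% lower. None of the 8 was called lower in any of the 3 comparisons. All 8 reached the minimum of UMIs, Glycam1 only through the operated libraries. Selp, Sele, Vcam1, Icam1, Icam2 and Ackr1 stayed within 1.5-fold in each comparison.

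**Figure D1:**
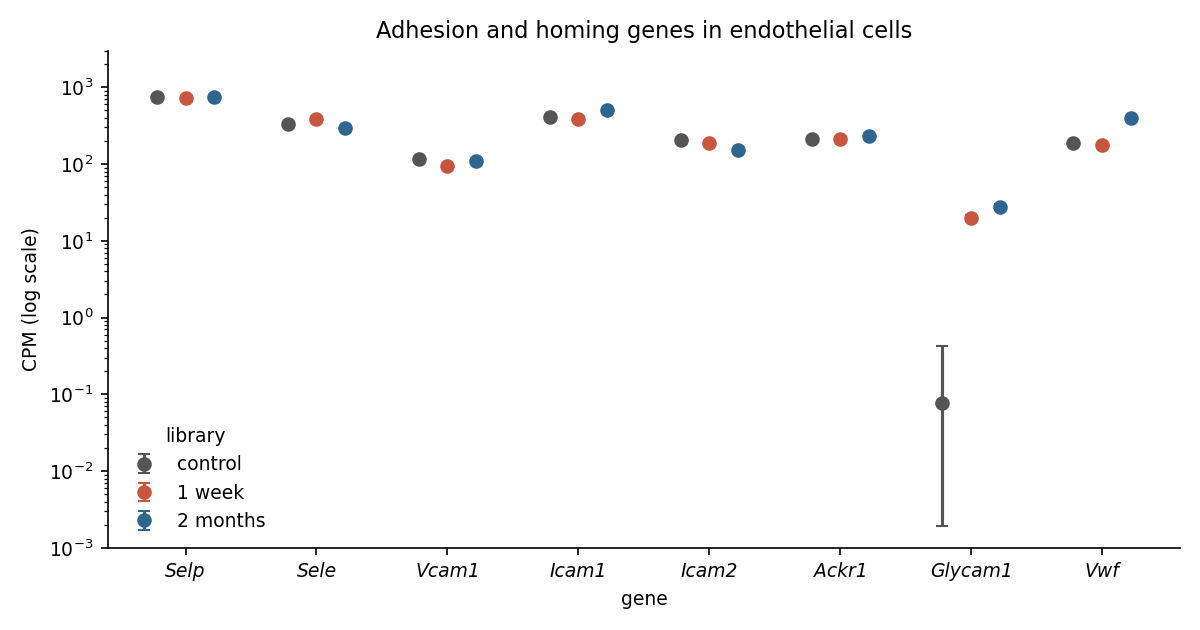
Level of the 8 genes in endothelial cells of each library, in CPM on a log axis. Points are the 3 libraries and bars are 95% Poisson intervals, mostly smaller than the points. Glycam1 stands at 0.0767 in the control and at 19.8 and 27.8 after DMM, and Vwf is at 404 at 2 months against 186 and 175.

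Selp encodes P-selectin. Its level was 754 CPM in control cells (95% Poisson interval 740 to 769), 728 at 1 week (717 to 739) and 742 at 2 months (730 to 755). The libraries lay within a few percent of each other. At 1 week the sign of the difference from the control turned under 6 of 13 settings, the one described here counted among the 13. Across these settings the log2 ratio ranged from -0.25 to 0.38, the highest with cells thinned to 3000 UMIs. Sele encodes E-selectin, which endothelial cells make after cytokine stimulation. It stood at 338 (328 to 348), 388 (380 to 396) and 299 (291 to 307). The 1-week library was the highest, 1.15 times the control (conditional binomial interval 1.11 to 1.19), and the 2-month library the lowest. Both genes lie on chromosome 1 of GRCm38, Sele at 164048234 to 164057677 and Selp at 164115264 to 164150026, both on the plus strand.

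Because 73.3%, 84.3% and 72.8% of the cells with Selp also had Sele, against 4.78%, 13.3% and 3.82% of those without it, the 250 bases before each start site are shown (RefSeq, GRCm38.p6), chr1:164115014-164115263 for Selp and chr1:164047984-164048233 for Sele, both on the plus strand. Capitals mark matches to a loose NF-kappa B pattern (GGG, any 5 bases, CC) and to TGANTCA, an AP-1 pattern, searched on both strands.
Selp: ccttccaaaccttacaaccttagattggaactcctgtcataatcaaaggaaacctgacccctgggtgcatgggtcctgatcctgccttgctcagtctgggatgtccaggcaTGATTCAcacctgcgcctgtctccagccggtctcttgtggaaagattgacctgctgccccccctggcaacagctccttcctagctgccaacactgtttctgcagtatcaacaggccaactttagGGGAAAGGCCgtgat
Sele: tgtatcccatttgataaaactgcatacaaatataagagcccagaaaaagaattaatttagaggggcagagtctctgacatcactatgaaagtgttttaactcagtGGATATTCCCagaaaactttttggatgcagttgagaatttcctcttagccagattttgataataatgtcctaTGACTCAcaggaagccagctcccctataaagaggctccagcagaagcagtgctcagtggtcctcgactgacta
Each promoter held 1 match to each pattern. Selp had GGGAAAGGCC from 15 to 6 bases before its start and TGATTCA from 139 to 133 bases before it. Sele had GGATATTCCC, a match on the other strand, from 145 to 136 bases and TGACTCA from 73 to 67 bases before its start. The AP-1 pattern occurred in 6.75% and the NF-kappa B pattern in 45.8% of 32851 promoter windows of the same length. A match is a description of the letters and not a site of binding. AP-1 is made of Fos and Jun proteins, and Fos and Jun are among 18 immediate-early and heat-shock genes listed as responders to tissue dissociation. At 1 week 7.7% of all endothelial genes were called higher and 8.38% lower than in the control. In endothelium 0 of the 18 were called higher and 11 lower at 1 week (median log2 ratio -1.14, against 0.02 over all genes). Their summed level was 20199.5, 9571 and 16024 CPM across control, 1-week and 2-month libraries. Their part in any result given here was not tested.

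For both selectins the share of cells with a UMI and the summed level differed in their order of libraries. Selp was detected in 371 of 1270 control endothelial cells (29.2%, Clopper-Pearson interval 26.7 to 31.8), in 942 of 1784 at 1 week (52.8%, 50.5 to 55.1) and in 529 of 1157 at 2 months (45.7%, 42.8 to 48.6). Fibroblasts, which should lack Selp, had a UMI in 4.84%, 3.90% and 2.88% of cells at medians of 13153, 16492 and 16085 UMIs, well below endothelium. With every cell thinned to 3000 UMIs the endothelial shares were 24.0%, 42.5% and 36.5%. Thinning left out 157, 31 and 31 shallower cells. Among cells with Selp the mean was 26.5, 19.3 and 25.3 UMIs and the median 9, 11 and 13. The 10% of endothelial cells with the most Selp carried 85.6%, 57.1% and 67.2% of its UMIs across control, 1-week and 2-month libraries, a share that is higher where fewer cells have the gene. No order of libraries is read from shares that go against the sums. Sele followed the same pattern, detected in 24.8%, 50.8% and 35.4% of cells with 82.5%, 55.7% and 71.4% of its UMIs in the top 10%. In fibroblasts 1.24%, 1.12% and 0.508% of cells had a Sele UMI.

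**Figure D2:**
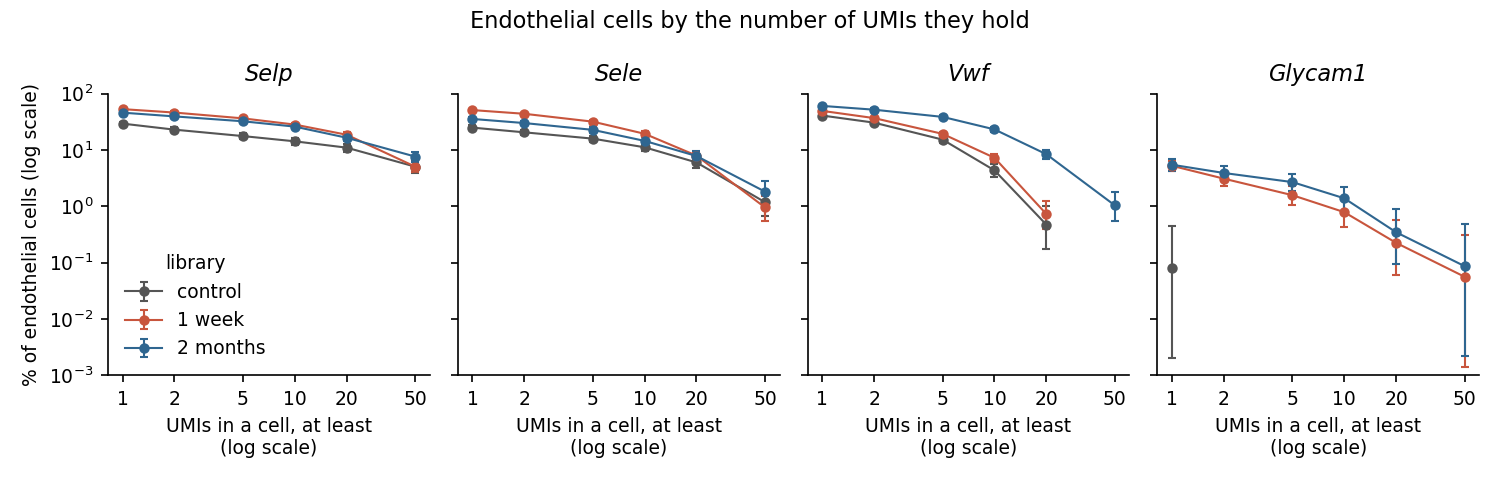
Percent of endothelial cells (log axis) that hold at least the number of UMIs on the horizontal axis (log axis), as deposited, for Selp, Sele, Vwf and Glycam1, with points for the 3 libraries and 95% Clopper-Pearson bars. For Selp the libraries differ at 1 UMI (29.2%, 52.8% and 45.7%) and lie closer at 50 UMIs (5.04%, 5.04% and 7.61%), whereas for Vwf the 2-month curve lies above both others at every number of UMIs plotted.

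Icam1 encodes the main endothelial ligand of the leukocyte integrins LFA-1 and Mac-1. Its level in endothelium was 407 CPM in control cells (396 to 418), 387 at 1 week (379 to 395) and 504 at 2 months (494 to 515). The 2-month library was the highest, 1.24 times the control (1.20 to 1.28), below the 2-fold threshold. The gene was detected in 64.6%, 73.6% and 75.2% of endothelial cells. Fibroblasts and leukocytes also express Icam1, so they give no background for these shares. Icam2 encodes a ligand of LFA-1 that resting endothelium carries without stimulation. It stood at 208 (200 to 216), 188 (182 to 193) and 151 (146 to 157), the lowest being the 2-month library at 1.37-fold below the control (1.30 to 1.45). Fibroblasts had an Icam2 UMI in 1.27%, 1.71% and 0.658% of cells, against 60.2%, 68.8% and 71.4% of endothelial cells. Thinned to 3000 UMIs per cell, the endothelial Icam2 shares were 41.2%, 39.1% and 35.7%, the reverse order of libraries. The thinned intervals of the control (38.2 to 44.1) and the 2-month library (32.9 to 38.6) overlapped. Vcam1 encodes the endothelial ligand of the integrin VLA-4 on monocytes and lymphocytes. Its endothelial level was 118 (112 to 124), 93.1 (89.3 to 96.9) and 111 (106 to 116), which was 1.27-fold lower at 1 week than in the control (1.19 to 1.36). Clusters led by fibroblast genes made up 18.7%, 19.6% and 18.2% of the gated cells and held 19.5%, 33.6% and 27.8% of these Vcam1 UMIs. Without clusters of another class, an alternative chosen after seeing the data, the log2 ratio against the control was -0.78 at 1 week and -0.36 at 2 months. On GRCm38 Icam1 lies on chromosome 9 at 21015985 to 21028817 (plus strand), Icam2 on chromosome 11 at 106377656 to 106388075 (minus strand) and Vcam1 on chromosome 3 at 116109949 to 116129688 (minus strand).

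The window before Icam1, chr9:21015690-21015939 on the plus strand of GRCm38.p6, is shown for comparison with the selectins. It held 1 match to the NF-kappa B pattern (capitals, read on the other strand) and none to TGANTCA.
Icam1: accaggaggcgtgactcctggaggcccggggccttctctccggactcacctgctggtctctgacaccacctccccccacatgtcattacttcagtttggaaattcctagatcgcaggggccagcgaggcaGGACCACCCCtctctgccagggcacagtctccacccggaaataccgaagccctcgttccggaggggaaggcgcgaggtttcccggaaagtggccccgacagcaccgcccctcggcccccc
The 16 NF-kappa B response genes listed with the 8 genes included 0 called higher and 2 lower in endothelium at 1 week, and 0 called at 2 months. The shares over all endothelial genes were 7.7% higher and 8.38% lower at 1 week, and 3.72% and 2.82% at 2 months. The called genes of the list were Irf1 and Gadd45b. Irf1, an interferon-response transcription factor, was at 558 CPM in the control and 180 at 1 week. Gadd45b, a stress-response gene, was at 868 and 290. Nfkbia, the inhibitor that NF-kappa B itself induces, was at 2310 and 1176. The median log2 ratio of the list was 0.01 at 1 week and -0.12 at 2 months, against 0.02 and 0.06 over all genes, and the list summed to 4375, 2331 and 2915 CPM.

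Ackr1 encodes a receptor of venular endothelium that binds many chemokines without signalling and carries them across the cell. Its level in endothelium was 214 (206 to 222), 214 (209 to 220) and 231 (224 to 238) CPM, and the libraries did not differ by more than 1.08-fold. It was detected in 26.5%, 36.0% and 37.2% of endothelial cells. Unlike Selp, Ackr1 was also found in fibroblasts, where its level was 19.997 CPM in control cells (18.8 to 21.2), 3.24 at 1 week (2.87 to 3.65) and 13.7 at 2 months (12.9 to 14.4). A UMI was present in 21.0%, 4.36% and 16.5% of fibroblasts. For every 100 Selp UMIs, fibroblasts held 394, 132 and 829 Ackr1 UMIs, where endothelial cells held 28.3, 29.4 and 31.2 and leukocytes 24.9, 22.7 and 31.6. The leukocyte ratio lay near the endothelial one and the fibroblast ratio far above it. The fibroblast level at 1 week was 6.17-fold below the control (5.40 to 7.06). Of endothelial cells with Selp, 70.6%, 64.4% and 71.5% also had Ackr1, against 8.23%, 4.28% and 8.28% of those without Selp. Ackr1 lies on chromosome 1 at 173331886 to 173333750 on the minus strand.

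Glycam1 gave the largest difference of the 8. In the control 1 UMI was counted in 1 of 1270 endothelial cells, a level of 0.0767 CPM (0.00194 to 0.427). At 1 week there were 493 UMIs in 93 of 1784 cells, 19.8 CPM (18.0 to 21.6), and at 2 months 503 UMIs in 63 of 1157 cells, 27.8 CPM (25.5 to 30.4). The intervals of the operated libraries lay far above that of the control. The ratio to the control was 258 at 1 week (46.0 to 10196) and 363 at 2 months (64.9 to 14373), wide because it rests on 1 control UMI. The share of cells with a UMI was 0.0787% (0.00199 to 0.438), 5.21% (4.23 to 6.35) and 5.45% (4.21 to 6.91). Fibroblasts had a UMI in 0 of 3781 control cells and in 0.147% and 0.169% of cells in the operated libraries. For the control fibroblasts, 3 divided by the number of cells gives an approximate upper limit of 0.0793%, which is not a Clopper-Pearson limit. Thinned to 3000 UMIs per cell, the endothelial shares were 0.0151%, 2.67% and 2.93%. The UMIs were concentrated, with 14 cells at 1 week and 16 at 2 months holding 10 or more, and up to 68 and 63 in a single cell. In the whole control library no Glycam1 UMI lay outside that 1 endothelial cell, whereas 88.7% of 556 UMIs at 1 week and 91.5% of 550 at 2 months were endothelial.

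The 250 bases before Glycam1 are shown because this gene alone of the 8 was nearly undetected in 1 library. They are chr15:103565082-103565331 of GRCm38.p6, read on the minus strand, and the gene itself lies at 103562759 to 103565081.
Glycam1: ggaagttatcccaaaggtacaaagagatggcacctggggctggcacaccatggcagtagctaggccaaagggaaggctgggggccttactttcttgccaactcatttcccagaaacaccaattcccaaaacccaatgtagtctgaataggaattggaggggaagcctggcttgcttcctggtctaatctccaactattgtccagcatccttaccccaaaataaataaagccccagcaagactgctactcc
They hold no match to either pattern named above or to AGATAA, which Gata2 and its relatives bind and which occurs in 9.99% of windows. That says only that these letters are not in this window.

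Most cells with Glycam1 also had the other venular genes. Among the 93 Glycam1 cells at 1 week, 92.5% also had Selp (85.1 to 96.9), 88.2% Sele, 82.8% Vwf and 74.2% Ackr1. Among the remaining endothelial cells of that library the shares were 50.6%, 48.7%, 47.3% and 33.9%. At 2 months 95.2% of the 63 Glycam1 cells had Selp (86.7 to 99.0), 79.4% Sele, 98.4% Vwf and 87.3% Ackr1, against 42.9%, 32.8%, 58.0% and 34.3% of the rest. Glycam1 cells were a minority of Selp cells, 9.13% at 1 week and 11.3% at 2 months. Cells with more UMIs have more genes detected, and the part of depth in this overlap was not tested.

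**Figure D3:**
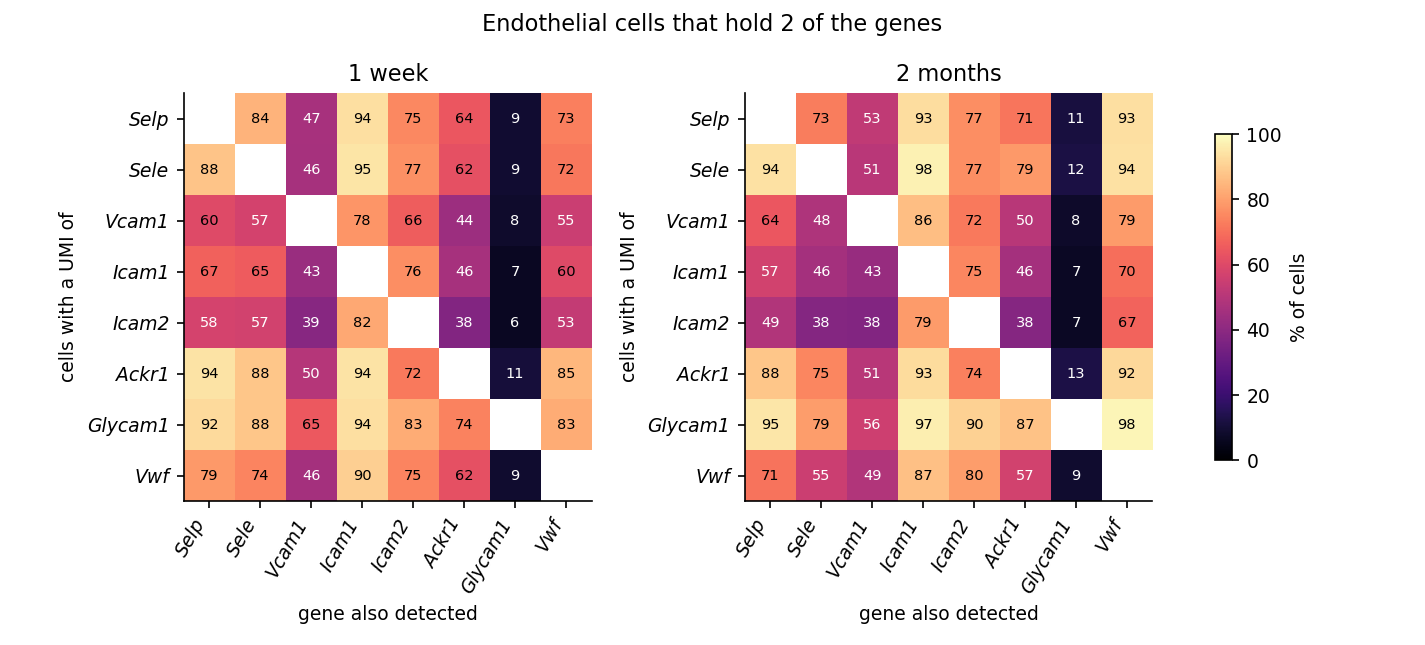
Percent of endothelial cells with a UMI of the row gene that also had a UMI of the column gene, for the 1-week and 2-month libraries. The Glycam1 row is high for Selp (92.5% and 95.2%) and Vwf (82.8% and 98.4%), while the Glycam1 column reaches at most 12.8% for any other gene.

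High endothelial venules of lymph nodes are known for a set of enzymes that build the sugar ligands of selectins. A list of 14 genes held such enzymes, selectin-ligand carriers and other genes of these venules, without Glycam1. Of these 11 had enough UMIs in each comparison. At 1 week 1 was called higher and 3 lower than the control, and at 2 months none was called in either direction. Over all endothelial genes 7.7% were called higher and 8.38% lower at 1 week, and 3.72% and 2.82% at 2 months. The gene called higher was Fut4, a fucosyltransferase, with 14 of 13040520 endothelial UMIs in the control and 64 of 24955839 at 1 week. The genes called lower were Podxl, a sialomucin, at 216 and 98.9 CPM in the control and at 1 week, Gcnt1, which branches O-glycans, at 9.66 and 2.76, and Enpp2, the enzyme that makes lysophosphatidic acid, at 80.1 and 24.0. The median log2 ratio of the list was -0.10 at 1 week and 0.15 at 2 months.

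Vwf encodes the multimeric protein that tethers platelets and forms the core of Weibel-Palade bodies. Its endothelial level was 186 CPM in control cells (179 to 194), 175 at 1 week (170 to 180) and 404 at 2 months (395 to 414). The 2-month library stood apart from both others. It was 2.17 times the control (2.07 to 2.27) and 2.31 times the 1-week library (2.22 to 2.40). The difference from 1 week fell below 2-fold when cells were thinned to 3000 UMIs (log2 ratio 0.91) or weighted equally (0.95), while that from the control stayed at or above 1.01 on the log2 scale under every setting tried. Vwf was detected in 40.6%, 49.2% and 60.2% of endothelial cells and in 1.75%, 1.45% and 2.54% of fibroblasts. Cells with 10 or more Vwf UMIs made up 4.33%, 7.23% and 23.1% of endothelium, and the most in a single cell was 46, 36 and 85. Thinned, the shares with a UMI were 28.0%, 31.5% and 44.3%. The gene spans chromosome 6 from 125546774 to 125686679 on the plus strand.

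Platelets carry both P-selectin and von Willebrand factor, so their genes were examined in the same cells. Of 10 platelet genes, Gp1ba and Gp6 had no UMI in any library's endothelial cells, Ppbp, Gp9 and Treml1 had at most 2, and Gp1bb and Clec1b at most 8. The summed level of the list was 70.5, 46.6 and 43.1 CPM, almost all of it Pf4, Itga2b and Nrgn. Pf4 was at 37.4, 12.2 and 16.2 and Itga2b at 18.8, 21.5 and 17.1. The part of platelet RNA in the Selp and Vwf levels was not tested. Of 16 other genes for Weibel-Palade bodies and haemostasis (15 with enough UMIs at 1 week), 4 were called higher and 1 lower at 1 week, and 3 higher and 0 lower at 2 months (median log2 ratios 0.48 and 0.39). Among all endothelial genes 7.7% were called higher and 8.38% lower at 1 week, and 3.72% and 2.82% at 2 months. Tfpi, the inhibitor of tissue factor, was at 16.3 in control cells, 47.6 at 1 week and 38.9 at 2 months. F8, coagulation factor VIII, was at 8.13 in the control and 19.4 at 2 months. Thbd, thrombomodulin, was at 195 in control cells, 80.7 at 1 week and 166 at 2 months. Mmrn1, which lymphatic endothelium also makes, was at 0.307, 16.9 and 125, and 6 of 9 lymphatic markers were called higher at 2 months. Without cells that had a Prox1, Lyve1 or Mmrn1 UMI, the log2 ratio of Vwf at 2 months against the control was 1.01.

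The genes differed in which others they varied with from cell to cell. Glycam1 had too few control UMIs to be compared. Pearson correlations of log-normalised values were taken within each library across endothelial cells and averaged over the 3 libraries, among 6955 genes. They describe cells that share a library and differ in depth, and carry no test. Selp was most like Sele (mean r 0.82), Ackr1 (0.74) and Lrg1 (0.71), a secreted glycoprotein of venules. Sele and Ackr1 in turn named Selp as their closest gene, and Icam1 was most like Selp (0.60), Sele (0.59) and Il6st (0.53), the shared receptor chain of the interleukin-6 family. Vwf was most like Il6st (0.65), Lrg1 (0.63) and Selp (0.61). Icam2 stood apart, with Egfl7 (0.47), Slc9a3r2 (0.46) and Pecam1 (0.44) as its closest genes and none of the other 6 genes compared among them. Vcam1 had only weak relations, with Selp at 0.32, Bgn at 0.27 and Vwf at 0.27.

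Endothelial cells were clustered without the 8 genes and the clusters named from markers of vascular beds. Venular-like cells numbered 307, 560 and 403. Different clusters held most of them, 1 led by Csf3 and Fmo2 in the control, 1 led by Serpinb1a and Cxcl10 in the 1-week library, and in the 2-month library 2 led by Fmo2 and Csf3 together with 1 led by Cd14 and Cmah. The venular name rested on unequal support. In the Csf3 cluster, with 237 control cells, 3 of 11 venular markers were at least 2-fold above the other cells, the fewest allowed. The cluster led by Fmo2 and Cytl1, with 154 cells at 2 months, had 5 of 11, with 0 among its 10 leading genes. The Serpinb1a and Cd14 clusters had 7 and 6 of 11. In venular-like cells Selp was at 2900 CPM in control cells, 2476 at 1 week and 1987 at 2 months. Sele stood at 1291, 1232 and 770, Ackr1 at 804, 800 and 597, and Icam1 at 1006, 946 and 939. Venular-like cells carried 90.9%, 77.7% and 84.8% of the endothelial Selp UMIs and 79.3% and 82.1% of the Glycam1 UMIs of the operated libraries. Within them Glycam1 was at 0.324, 68.6 and 72.2 and Vwf at 562, 558 and 977 CPM. So within venular-like cells the 2-month library was highest for Vwf, 1.74 times the control (1.65 to 1.84), and lowest for Sele, 1.68-fold below it.

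Icam2 and Vcam1 had another distribution. Icam2 was highest in arterial-like cells (238, 76 and 118 cells) in every library, at 544, 448 and 431 CPM against 209, 170 and 144 in venular-like cells. Vcam1 in the control was higher in venular-like cells, 260 (242 to 279), than in arterial-like cells, 93.0 (80.5 to 107). At 2 months the order was the opposite, with 279 (252 to 308) in arterial-like and 155 (145 to 166) in venular-like cells. At 1 week the intervals overlapped, 172 (147 to 200) and 151 (141 to 161), and venular-like cells were the higher at Leiden resolution 1.5 and with each library centred. At Leiden 0.5 arterial-like cells were highest in all 3 libraries among beds with at least 50 cells. Venular-like cells then numbered 0, 446 and 8, too few to be compared except at 1 week. Against the control, Vcam1 was thus 1.73-fold lower in venular-like and 1.85-fold higher in arterial-like cells at 1 week, and 1.68-fold lower and 2.999-fold higher at 2 months. Arterial-like cells with a Vcam1 UMI numbered 48, 30 and 46, so few cells carry these values. Vwf in arterial-like cells was 114, 239 and 232.

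Of 23 gene and library pairs with a value, 18 were highest in venular-like cells. At Leiden resolution 1.5, and with each library centred, 19 of 23 were. At a coarser resolution (Leiden 0.5) no control cells were venular-like. Only 17 pairs then reached the minimum of UMIs, and 6 of them were highest in venular-like cells.

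**Figure D4:**
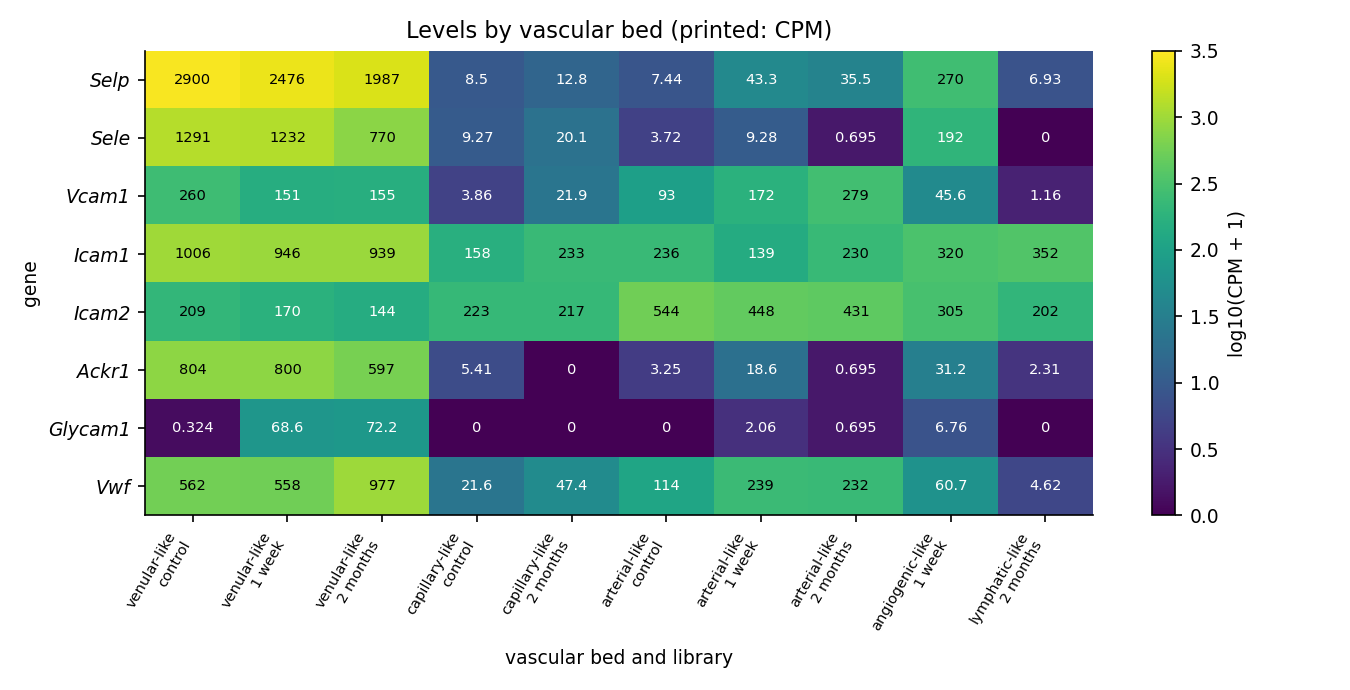
Level of each of the 8 genes (rows) by vascular bed and library (columns, beds with at least 50 cells in the library), printed in CPM and coloured by log10 of that value plus 1. Selp, Sele, Icam1, Ackr1 and Vwf are highest in the venular-like columns of each library, Icam2 in the arterial-like columns (544, 448 and 431), and Vcam1 in the venular-like column of the control and the arterial-like column at 2 months, with overlapping intervals at 1 week (172 and 151).

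Vcam1 and Icam1 are also made outside the endothelium. Fibroblasts here were cells with Pdgfra and without Ptprc or Cdh5 (3781, 4748 and 5317 cells), and they held more of the Vcam1 UMIs of each library, 58.9%, 65.6% and 70.5%, than endothelium did, 26.0%, 14.9% and 15.4%. Their Vcam1 level was 64.8 CPM in control cells (62.7 to 67.0), 120 at 1 week (117 to 122) and 93.6 at 2 months (91.7 to 95.5). It was 1.85 times the control at 1 week (1.78 to 1.92) and 1.44 times at 2 months (1.388 to 1.502), in both cases under 2-fold. At 1 week fibroblasts were thus above endothelium in Vcam1 CPM, which they were not in the other libraries. A Vcam1 UMI was detected in 35.7%, 66.7% and 51.9% of fibroblasts.

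Icam1 in fibroblasts differed in the other direction. It was at 157 CPM in control cells (153 to 160), 28.2 at 1 week (27.1 to 29.3) and 87.2 at 2 months (85.3 to 89.1). The 1-week library was the lowest, 5.56-fold below the control (5.32 to 5.82), and the 2-month library was 3.09 times the 1-week library (2.96 to 3.24). Both differences were called. Over all genes in fibroblasts, 11.6% of 14582 were called higher and 10.6% lower at 1 week than in the control, and 8.86% of 14999 higher and 8.31% lower at 2 months than at 1 week. The 2-month library was 1.80-fold below the control (1.745 to 1.85), under the threshold, where 5.44% of 14620 genes were called higher and 4.15% lower. Immediate-early and heat-shock genes were also lowest at 1 week. Of the 18, 0 were called higher and 7 lower in fibroblasts at 1 week, and their summed level was 14322, 7839 and 10110 CPM across control, 1-week and 2-month libraries. Of the 16 NF-kappa B response genes 0 were called higher and 2 lower in fibroblasts at 1 week (median log2 ratio -0.23) and 0 higher and 1 lower at 2 months (median -0.11), and they summed to 2775, 1511 and 1695 CPM. The part of either list in the Icam1 result was not tested. Leukocytes showed Icam1 at 441, 136 and 192 CPM, also highest in the control. Endothelium held 25.9% of all control Icam1 UMIs, 52.7% of those at 1 week and 38.8% of those at 2 months.

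**Figure D5:**
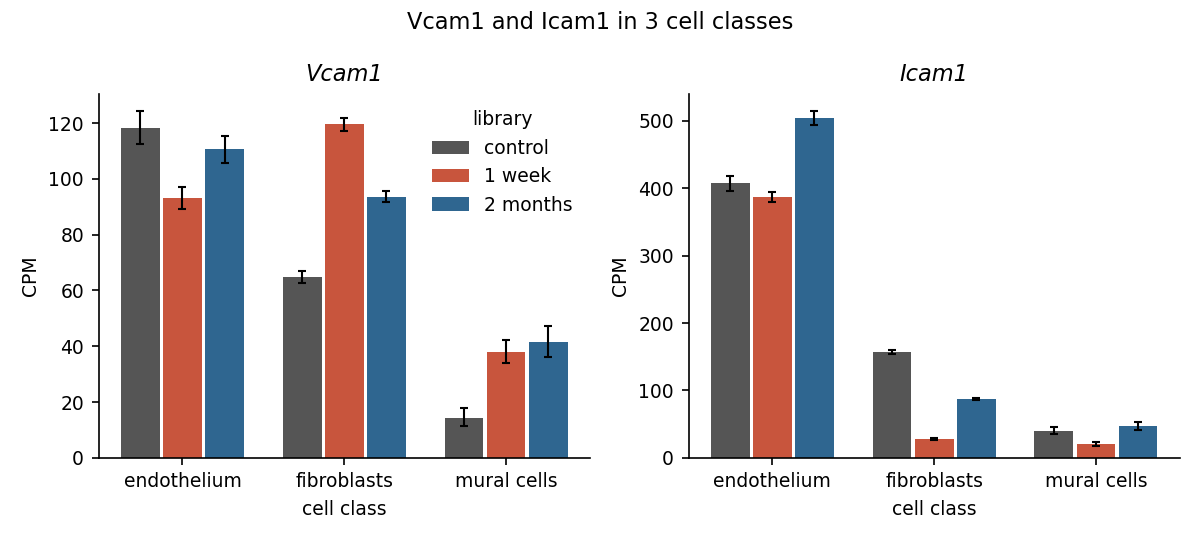
Level of Vcam1 (left) and Icam1 (right) in endothelium, fibroblasts and mural cells, in CPM, with bars for the 3 libraries and 95% Poisson intervals. In fibroblasts Vcam1 is highest and Icam1 lowest at 1 week (120 and 28.2), while endothelial Icam1 stays between 387 and 504.

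Mural cells, the pericytes and smooth muscle around vessels, were cells with Notch3 and without Pdgfra, Ptprc or Cdh5 (694, 711 and 423 cells). Their Vcam1 level was 14.4 CPM in control cells (11.5 to 17.9), 38.1 at 1 week (34.1 to 42.4) and 41.5 at 2 months (36.2 to 47.4). Both operated libraries lay above the control, 2.64 times at 1 week (2.07 to 3.40) and 2.88 times at 2 months (2.22 to 3.76), and both were called. Among all genes 13.1% of 11014 were called higher and 11.7% lower at 1 week, and 4.96% of 10374 higher and 3.39% lower at 2 months. A Vcam1 UMI was found in 7.78%, 25.0% and 17.0% of mural cells, against 8.82%, 14.6% and 13.0% of leukocytes. Icam1 in mural cells was at 40.1 (35.1 to 45.7), 20.1 (17.2 to 23.3) and 47.6 (41.9 to 53.9). The 1-week library was lowest, 2.00-fold below the control (1.64 to 2.45), a call on the threshold that was lost under 6 other settings with the same 2-fold threshold, the closest to no difference being a log2 ratio of -0.54 with cells thinned to 3000 UMIs. It was higher at 2 months than at 1 week by 2.37 times (1.95 to 2.89), which was also called, where 8.19% of 10910 genes were called higher and 7.79% lower. In mural cells 4 of 15 NF-kappa B response genes were called higher and 0 lower in each operated library against the control, and the dissociation list summed to 11610, 8623 and 15585 CPM. Of 12 endothelial identity genes, 7 had enough UMIs in mural cells at 1 week, where 4 were called higher and 2 lower (median log2 ratio 1.03), and at 2 months 6, of which 1 was called higher and 2 lower (median -0.08). The list summed to 94.7, 160 and 117 CPM. Leukocyte markers there summed to 952, 539 and 386 CPM. The part of these lists in the mural results was not tested.

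Partners of these genes on leukocytes (cells with Ptprc, 1122, 3697 and 2070) were read in the same libraries. Selplg, the P-selectin ligand, was at 92.1, 131 and 132 CPM of leukocytes. Itga4, the VLA-4 chain that binds VCAM-1, was at 69.0, 67.0 and 87.2. Of the integrin chains that bind ICAM-1, Itgal was at 9.46, 24.7 and 59.95 and Itgam at 254, 125 and 305. Cxcr2, a neutrophil chemokine receptor, was at 9.21, 13.8 and 122, and Ccr2, that of inflammatory monocytes, at 52.7, 178 and 114. These levels depend on which leukocytes each library held, which cannot be told apart from a change within a type in such sums.

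Genes for junctions and transmigration and for endothelial chemokines were listed alongside. Against the control, 7.7% of all endothelial genes were called higher and 8.38% lower at 1 week, and 3.72% and 2.82% at 2 months. Of 14 junction genes (13 with enough UMIs at 2 months), 3 were called higher and 1 lower at 1 week, and 2 higher and 0 lower at 2 months. Mcam, a junctional adhesion protein also made by mural cells, was at 51.8, 189 and 111 CPM. Jam3, a tight junction protein, was at 46.5, 16.6 and 34.7, and Bst1, a leukocyte-adhesion ectoenzyme, was at 14.6 in the control and 45.7 at 2 months. Of 15 chemokine, cytokine and scavenger-receptor genes (14 with enough UMIs at 2 months), 2 were called higher and 6 lower at 1 week (median log2 ratio -0.79) and 1 higher and 5 lower at 2 months (-0.44). Ccl21a, which draws CCR7-bearing cells and has near-identical copies that counting may split, was at 8.67, 157 and 694. It also led the lymphatic-like cluster, and the 9 lymphatic markers, Ccl21a among them, summed to 319, 339 and 1454. Ccl5, a T cell and monocyte attractant, was at 1.38 in control cells, 52.2 at 1 week and 0.388 at 2 months. Cxcl9, an interferon-induced attractant of T cells, was at 69.2, 23.6 and 24.6. Of 12 cytokine receptor and sensor genes, none was called at 1 week and 1 was called higher at 2 months. That gene was Il33, the alarmin of endothelial nuclei, at 5.67 in the control and 12.8 at 2 months.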

How the data were processed

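The authors deposited raw UMI counts by gene and cell barcode, made with Cell Ranger 5.0.0 (control and 1-week libraries) and 5.0.1 (2-month library) per the file headers, whereas the submitters' processing notes name version 6.0.1 and build mm10. Counts were used as deposited. Every statistic here was computed from them.

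Classes were gated by Cdh5, Ptprc, Pdgfra and Notch3 UMIs and summed per library. Poisson, Clopper-Pearson and conditional binomial intervals were taken at 95% with scipy 1.17.1. Where a sum was below 3 UMIs, calls used a floor of 3. Thinned shares are expected values over draws without replacement. Endothelial cells were clustered in scanpy 1.11.5 on 2000 variable genes after leaving out the 8 genes and those for mitochondrial transcripts, ribosomal proteins, haemoglobins, the Y chromosome and Xist, with 30 components, 15 neighbours and Leiden resolution 0.8, and clusters were named from fixed markers. Doublets were left in, and their removal was an alternative. Ratios and their conditional binomial intervals, not the calls, were tested on simulated Poisson counts with known folds. The folds were put only on well-counted genes, and the counts held no spread between mice.

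The 8 genes and the gene lists were chosen with earlier results of these data known. Genes named from a list were up to 3 with the largest absolute log2 ratio per comparison among those with at least 50 UMIs, or, where a list is described by its defining or called genes, were named after their values were seen. Likeness used genes with at least 200 UMIs in each library's endothelium. Positions are from the GENCODE vM21 annotation of GRCm38. Promoters from RefSeq (GRCm38.p6) were matched by symbol for 5 of the 8 genes. One leukocyte gene is not reported here.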

Additional observations from a re-analysis of the deposited data

Results flagged for a closer look

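For 6 pairs of cell classes the difference from one library to another had opposite signs in the pair, each with a counting interval that leaves out a ratio of 1. They compare 1 library with 1 library, and the differences between classes were not tested. At 1 week against the control, Vcam1 was lower in endothelium (0.79 times the control) and higher in fibroblasts (1.85 times) and mural cells (2.64 times), so the endothelial log2 ratio lay -1.23 from that of fibroblasts and -1.75 from that of mural cells. At 2 months against the control Vcam1 was at 0.93 times in endothelium, 1.44 times in fibroblasts and 2.88 times in mural cells, with differences of -0.63 and -1.62. The endothelial value at 2 months changed sign when every cell had equal weight (log2 ratio 0.23) and when cells were thinned to 3000 UMIs (0.16). Between the operated libraries Vcam1 was 1.19 times higher at 2 months in endothelium and 0.78 times the 1-week level in fibroblasts, a difference of 0.60. Icam1 at 2 months against the control was at 1.24 times in endothelium and 0.56 times in fibroblasts, a difference of 1.16 on the log2 scale. A Pdgfra UMI was present in 20.6%, 20.4% and 21.3% of control, 1-week and 2-month endothelial cells, and its part in these values was not tested. With a Pecam1 UMI required and cells with Pdgfra or Notch3 left out, the endothelial log2 ratio of Vcam1 was -0.80 at 1 week and -0.42 at 2 months.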

How the results depend on the processing

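No paired analysis was possible because each group was 1 library, and for the same reason no library could be left out. Across the alternative filters, gates, weightings and scalings, Glycam1 was called higher than the control at both times and Vwf higher than the control at 2 months, except that Vwf was not called at 3-fold. With a call at 3-fold, 1 of the 8 genes was called in endothelium at 2 months against the control, 0 at 2 months against 1 week and 0 of the Vcam1 and Icam1 comparisons in mural cells. Vwf at 2 months against 1 week was no longer called with every cell equal or with cells thinned to 3000 UMIs, giving 0 calls. At 1.5-fold, 4 of the fibroblast comparisons of Vcam1 and Icam1 were called in place of 2. At Leiden resolution 0.5 no control cells were venular-like, and 6 of 17 gene and library pairs were highest in venular-like cells, against 18 of 23 in the clustering described. Of 492 single-gene values under alternatives, 343 stayed within the counting interval, 149 moved outside it and 0 called values changed sign. The 343 include every value under the 1.5-fold call, the 3-fold call and no minimum of UMIs. Those settings change the calls and cannot move a value. Leaving out clusters led by fibroblast, mural or leukocyte genes, an alternative chosen after seeing the data, left the endothelial counts at 1, 2 and 1. The signs of the Selp and Ackr1 differences between libraries turned under several settings, within log2 ratios of -0.37 to 0.50, as did at least once those of Sele, Icam1 and Vwf at 1 week and Vcam1 at 2 months against the control, Glycam1 at 2 months against 1 week, and in mural cells Icam1 at 2 months against the control and Vcam1 at 2 months against 1 week. Depth in control endothelium leaves its Glycam1 level an upper bound of 0.427 CPM.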
